A study of Homo sapiens with 6 samples.

Results

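Matrix metalloproteinase (MMP) genes, the genes of their tissue inhibitors (TIMPs) and BSG, which encodes basigin, were examined in the SK-MES-1 line. The set holds 10 genes, named by symbol, out of 15761 rows of the deposited table: MMP1, MMP2, MMP14, MMP15, MMP19, MMP28, TIMP1, TIMP2, TIMP3 and BSG. All 10 symbols had a row. Of these, 8 had enough reads to be tested, while MMP28 and TIMP3 did not.

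MMPs are zinc-dependent endopeptidases, mostly secreted as inactive zymogens or anchored in the plasma membrane, that cleave collagens, other matrix proteins and cell-surface proteins. TIMPs bind the active site of MMPs and block it, and TIMP2 also bridges the membrane enzyme MMP14 to proMMP2 so that MMP2 can be activated. Basigin, also called EMMPRIN or CD147, is a surface glycoprotein known for inducing MMPs in neighbouring fibroblasts and for carrying lactate transporters to the membrane. In lung carcinoma these genes are studied for their part in invasion of the matrix.

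SK-MES-1, a long-established human cell line, came from a squamous carcinoma of the lung, and all libraries carry the genotype label WT. The exosome group was kept for 72 h in complete medium with DHLF-exo, exosomes (small secreted membrane vesicles) from lung fibroblasts of idiopathic pulmonary fibrosis, at 20 µg/ml. The control group was kept in parallel in medium to which no exosomes were added. Each group had 3 libraries of total RNA, and no group received vesicles of another source, so an effect of these exosomes cannot be told apart from that of any vesicle. The series title names exosomal MMP1, and the comparison covers MMP, TIMP and BSG transcripts in RNA of the recipient cultures. RNA carried in by the vesicles cannot be told apart from the cells' own. Whether the 3 libraries of a group came from independent cultures is not stated, and the p-values therefore rest on a spread between samples that may be technical. How many donors the fibroblasts came from is likewise not stated.

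The libraries held 13038688 to 13334508 counts in the exosome group and 11346639 to 12924251 counts in the control group. The test covered 12449 genes and called 51.7% of them, 25.6% as higher and 26.1% as lower in the exosome group (edgeR's quasi-likelihood test, Benjamini-Hochberg adjusted p under 0.05). Scaled by library totals in place of TMM factors, 60.4% of all calls were higher, against 49.6%. Across genes, which are not independent replicates, the fold changes followed the GC content of the longest transcript (Spearman's rho 0.62) and its length (rho -0.39). A value called corrected below is one with that trend removed within each library, and its part in any single result was not tested. With the correction 35.3% of genes were called, 18.0% as higher and 17.2% as lower. Libraries 3 of both groups lay farthest from their own group, with a chi-square per gene of 7.15 to 9.34 against the other exosome libraries and 11.7 to 15.6 against the other control libraries. The label was borne out only in part by markers. KRT8, KRT18 and KRT19, keratins of simple epithelia, averaged 400 to 689 FPKM with exosomes and 496 to 669 FPKM in control. KRT8 and KRT18 were called lower with and without the correction, and KRT19 only with it. KRT5, KRT6A, KRT6B and KRT14, keratins of basal squamous cells, averaged at most 0.182 FPKM in either group. Of 15 fibroblast markers 8 had a row, and their summed level was 3.40 to 3.49 FPKM in exosome libraries and 4.0 to 4.29 FPKM in control libraries, with PDGFRA, COL3A1, FAP and THY1 below 0.1 FPKM in every library. FBLN1 (1.84 FPKM with exosomes, 2.19 FPKM in control) and PDGFRB (1.18 and 1.34 FPKM) gave most of that sum, and of 4 tested fibroblast markers 0 were higher and 1 was lower, COL6A3 (3 lower corrected). The leukocyte genes PTPRC, CD3E and ITGAM averaged at most 0.0229 FPKM in either group. CD68, at 104 FPKM with exosomes and 84.9 FPKM in control, was called higher (not after correction) and CSF1R lower, and none of 3 tested endothelial markers of 6 passed. The squamous genes TP63, SOX2 and KRT17 averaged 0.349, 2.22 and 0.674 FPKM with exosomes, against 0.232, 1.73 and 2.10 FPKM in control, and KRT17 was called lower. The whole epithelial and squamous list, with 12 of 14 genes in the table, had 0 higher and 4 lower of 8 tested (0 and 6 corrected). Its sum of 1490 to 1640 FPKM with exosomes and 1690 to 1750 FPKM in control came almost wholly from KRT8, KRT18 and KRT19. The part of these levels in the results was not tested.

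The promoters of the members called higher are shown, TIMP1 and BSG having passed the uncorrected test. The 150 bases before each RefSeq start (build GRCh38.p14, plus strand, 5′ to 3′) are TIMP1 at chrX:47582286-47582435, and BSG before its upstream start at chr19:571133-571282 and before its downstream start at chr19:572446-572595. The stretches reach into the genes as placed by the deposited positions given below, which begin at 47582313 for TIMP1 and 571277 for BSG. Capitals mark TGAGTAA, a variant of the AP-1 motif known from TIMP1 promoters, and GGGCGG, the GC box bound by SP1, each on either strand.
TIMP1: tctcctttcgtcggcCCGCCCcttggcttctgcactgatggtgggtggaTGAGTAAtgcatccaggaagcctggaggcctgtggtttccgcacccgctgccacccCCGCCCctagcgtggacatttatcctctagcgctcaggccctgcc
BSG upstream start: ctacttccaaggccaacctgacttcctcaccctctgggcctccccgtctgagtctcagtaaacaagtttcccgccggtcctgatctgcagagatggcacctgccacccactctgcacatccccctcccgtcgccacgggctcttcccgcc
BSG downstream start: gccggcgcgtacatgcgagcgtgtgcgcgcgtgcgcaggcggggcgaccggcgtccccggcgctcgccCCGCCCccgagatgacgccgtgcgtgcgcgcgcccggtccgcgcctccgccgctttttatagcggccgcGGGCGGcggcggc
TIMP1 held TGAGTAA with its first base 101 bases before its RefSeq start (position -101). This heptamer was found within 250 bases before the start in 2.21% of 35116 RefSeq starts. The other AP-1 form searched, TGANTCA, stood in none of these 3 windows and in 6.57% of all starts. Within 250 bases, GGGCGG stood 2 times before the TIMP1 start, 0 times before the upstream BSG start and 3 times before the downstream one, of which 2 lie in the printed stretch, and 42.6% of all starts held it in that window. The RefSeq table matched 5 of the 10 members, with MMP14, MMP15 and TIMP3 besides these, and not MMP1, MMP2, MMP19, MMP28 and TIMP2.

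With exosomes, TIMP2 transcripts were lower, with and without the correction, and none of the 5 tested MMP members passed the uncorrected test. TIMP1 and BSG were higher only without the correction, which turned TIMP1 to lower and left BSG uncalled. In RNA of whole cultures, fewer cells of a type and less RNA per cell cannot be told apart. The members thus had 2 higher calls and 1 lower call among 8 tested genes, beside 25.6% and 26.1% of all tested genes (51.7% in either direction). Their median log2 fold change was 0.18, against -0.004 over all genes tested. Corrected, 0 members were higher and 3 lower, with a median of -0.12, beside 18.0% and 17.2% of all genes (35.3% in either direction). Exosome and control libraries did not overlap for 4 of the 8 in CPM, scaled to library totals without TMM factors. MMP1, TIMP1 and BSG lay above control and TIMP2 below, beside 35.0% of all tested genes above and 24.5% below. With TMM factors the MMP1 groups would overlap. The same 3 genes, TIMP1, TIMP2 and BSG, had an adjusted p below the threshold in the authors' deposited table.

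**Figure D1:**
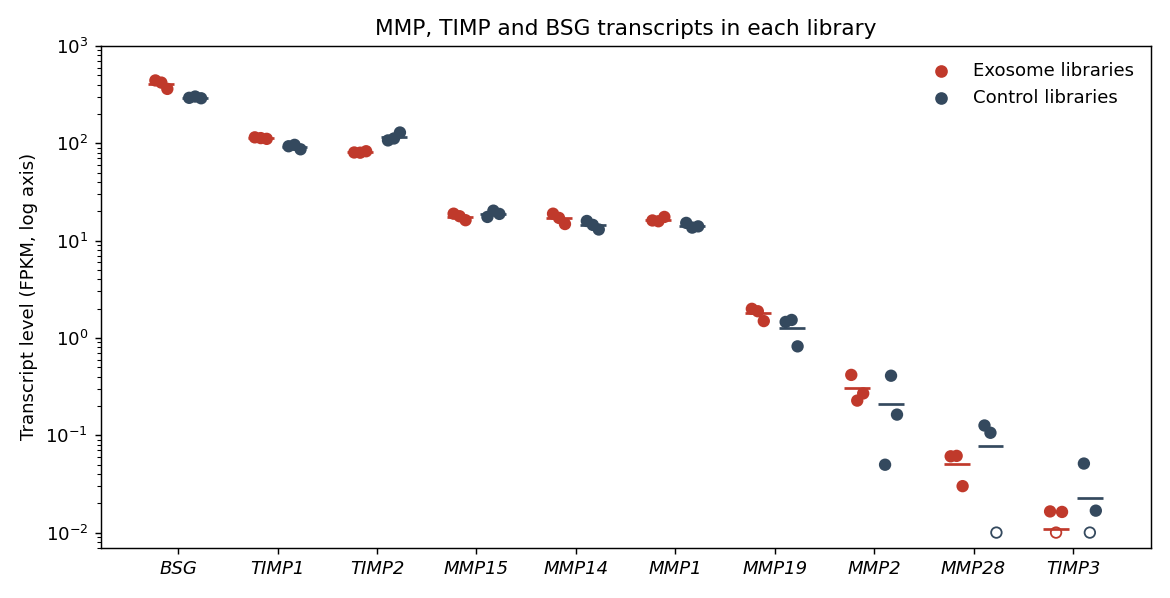
FPKM (log axis) of the 10 members in each of 3 exosome and 3 control libraries; points are libraries, lines are group means, and open points at the lower edge are values of 0. BSG stood highest at 362 to 442 FPKM with exosomes against 290 to 302 FPKM in control, and MMP28 and TIMP3 stayed below 0.13 FPKM.

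Ranked by FPKM, reads per kilobase of transcript scaled to the library's total, BSG was the most abundant member and lay at rank 73 of 15761 rows with exosomes. TIMP1 and TIMP2 followed, then MMP15, MMP14 and MMP1 close together, then MMP19, MMP2, MMP28 and TIMP3. With exosomes the levels of MMP15, MMP14 and MMP1 overlapped, at 14.8 to 18.9 FPKM. In control MMP15, at 17.5 to 20.3 FPKM, lay above MMP14 and MMP1, which overlapped each other at 13.0 to 15.9 FPKM. The order of the inhibitors differed: TIMP1 lay above TIMP2 in every exosome library and below it in every control library.

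Of the secreted enzymes, MMP1 (interstitial collagenase, which opens the triple helix of fibrillar collagen) is on chromosome 11 from 102789920 to 102798160 of GRCh38. MMP1 had 16.1, 15.8 and 17.5 FPKM in exosome libraries 1 to 3, against 15.2, 13.6 and 14.0 FPKM in control libraries 1 to 3. The TMM factors of the test were 1.013 to 1.0385 in exosome libraries and 0.9624 to 0.9826 in control libraries. With them, control library 1 would lie above exosome libraries 1 and 2. Scaled to library totals alone, as FPKM is, every exosome library lay above every control library. In CPM scaled that way, 59.5% of all tested genes had groups apart in one direction or the other. The groups were nevertheless close: its 304 to 459 reads per library gave a log2 fold change of 0.12 ± 0.10 (SE, n = 3 each; edgeR adjusted p = 0.347) with a 95% confidence interval of -0.10 to 0.34. The corrected value was 0.15 (adjusted p = 0.227). Tested genes within 2.5 percentage points of its GC content of 43.4% had a median log2 fold change of -0.18.

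MMP19, an enzyme of basement membrane components on chromosome 12 from 55835433 to 55842966, had 1.99, 1.88 and 1.49 FPKM with exosomes, against 1.46, 1.53 and 0.819 FPKM in control. Its groups overlapped, with exosome library 3 between control libraries 1 and 2. The log2 fold change of 0.42 ± 0.26 did not pass (SE; edgeR adjusted p = 0.182; 95% confidence interval -0.11 to 0.95).

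MMP2 (gelatinase A, which degrades denatured collagen and type IV collagen), on chromosome 16 from 55389700 to 55506691, was read only 26, 14 and 17 times with exosomes and 3, 22 and 10 times in control. The exosome libraries had 0.227 to 0.417 FPKM and lay almost wholly within the range of the control libraries, 0.0498 to 0.409 FPKM. Its log2 fold change of 0.51 ± 0.50 did not pass (SE; edgeR adjusted p = 0.412; 95% confidence interval -0.53 to 1.55). That value moved with single libraries: it was 1.42 without control library 2 (edgeR adjusted p = 0.036), 0.05 without control library 1 (adjusted p = 0.936), and 0.22 (adjusted p = 0.795) when exosome library 1 was left out.

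MMP28 (epilysin, a secreted enzyme of epithelia), on chromosome 17 from 35756249 to 35795707, was read 2, 2 and 1 times with exosomes and 4, 3 and 0 times in control. These 5 and 7 reads in all cannot show a difference at this depth, at which 3 reads in a library correspond to 0.225 to 0.264 CPM. The annotation places TAF15 and C17orf50 over MMP28 on the other strand.

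The membrane-bound members were MMP14 and MMP15, collagenolytic enzymes (MT1-MMP and MT2-MMP) that also activate proMMP2. MMP14, on chromosome 14 from 22836557 to 22849027, had 18.9, 17.1 and 14.8 FPKM with exosomes, against 15.9, 14.5 and 13.0 FPKM in control. The groups overlapped, with exosome library 3 below control library 1. Its log2 fold change was 0.14 ± 0.10 (SE; edgeR adjusted p = 0.244; 95% confidence interval -0.06 to 0.35), and the corrected one -0.15 (adjusted p = 0.152), so that neither passed and the direction turned.

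MMP15, on chromosome 16 from 58025566 to 58046901, had 18.9, 17.8 and 16.2 FPKM with exosomes, against 17.5, 20.3 and 18.8 FPKM in control. These groups overlapped, and the log2 fold change of -0.18 ± 0.086 did not pass (SE; edgeR adjusted p = 0.0798). MMP15 has the highest GC content of the members, at 66.0%, and tested genes within 2.5 percentage points of it had a median log2 fold change of 0.51. Corrected for GC and length, MMP15 was lower by -0.63 ± 0.076 (SE; edgeR adjusted p = 2.29e-06), the only MMP among the members called in either fit.

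**Figure D2:**
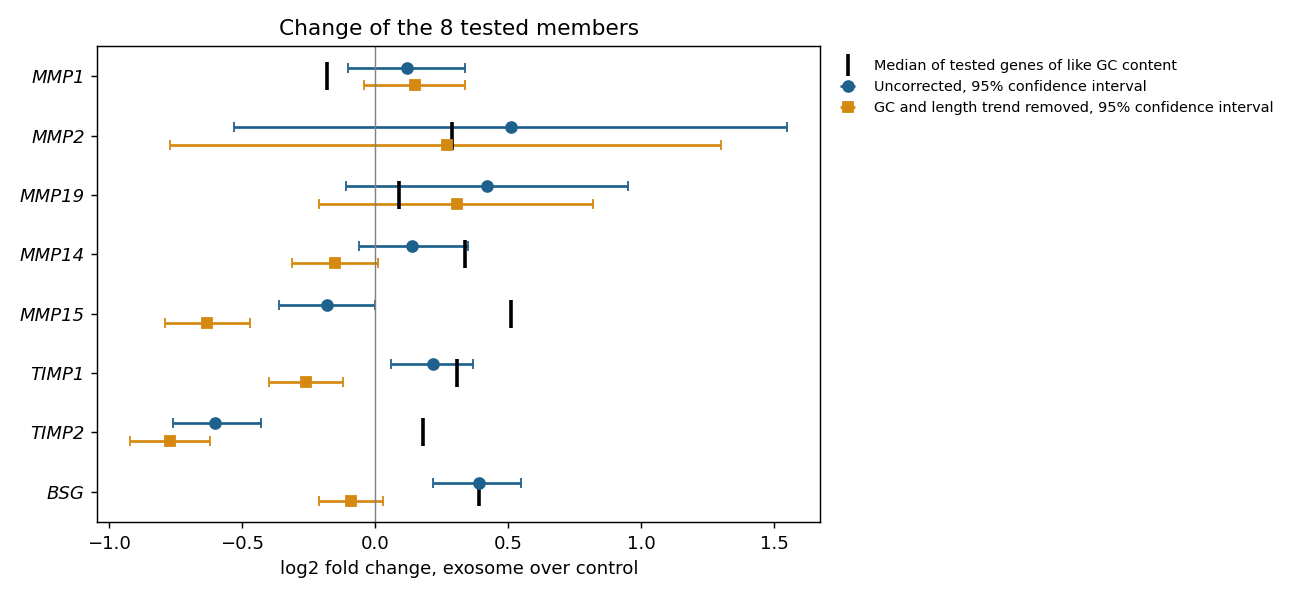
log2 fold change, exosome over control, of the 8 tested members with 95% confidence intervals, uncorrected (circles) and with the GC and length trend removed (squares); black ticks are the median of all tested genes within 2.5 percentage points of GC content. TIMP2 lay below 0 in both fits, at -0.60 and -0.77, TIMP1 changed side from 0.22 to -0.26, and BSG, at 0.39, coincided with the median of genes of like GC content.

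The inhibitors moved in opposite directions without the correction, and both were lower with it. TIMP2, which besides blocking MMPs takes part in proMMP2 activation, is on chromosome 17 from 78852977 to 78925387 and was read 4253 to 4498 times per exosome library. TIMP2 had 80.4, 80.0 and 82.8 FPKM with exosomes, against 107, 112 and 129 FPKM in control. All exosome libraries were lower than all control libraries, and they spread less, at 81.1 ± 1.48 FPKM against 116 ± 11.7 FPKM (SD, n = 3). TIMP2 fell by 0.60 on the log2 scale (a 1.51-fold fall; SE 0.079, edgeR adjusted p = 3.65e-06; 95% confidence interval -0.76 to -0.43). The corrected value was -0.77 (edgeR adjusted p = 1.12e-07), and tested genes of like GC content had a median of 0.18. CEP295NL overlaps TIMP2 on the same strand and antisense genes lie on the other, so some reads may be shared.

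TIMP1, a broad MMP inhibitor with growth-promoting activity, is on chromosome X from 47582313 to 47586789, and its TGAGTAA heptamer is shown above. TIMP1 had 115, 113 and 111 FPKM with exosomes, against 93.2, 96.3 and 86.7 FPKM in control. All exosome libraries were higher than all control libraries. The log2 fold change was 0.22 ± 0.076 (SE; edgeR adjusted p = 0.021; a 1.16-fold rise), and tested genes of like GC content had a median of 0.31. Corrected, TIMP1 was lower, by -0.26 ± 0.067 (SE; edgeR adjusted p = 0.00476), and the uncorrected call ended without exosome library 1 (adjusted p = 0.0522) or 2 (adjusted p = 0.0631). TIMP1 overlaps SYN1, which is transcribed from the other strand.

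TIMP3, the inhibitor that binds to the matrix and also blocks ADAM proteases, is on chromosome 22 from 32801701 to 32863043. TIMP3 was read 1, 0 and 1 times with exosomes and 3, 0 and 1 times in control, too few to test, and SYN3 overlaps it on the other strand.

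**Figure D3:**
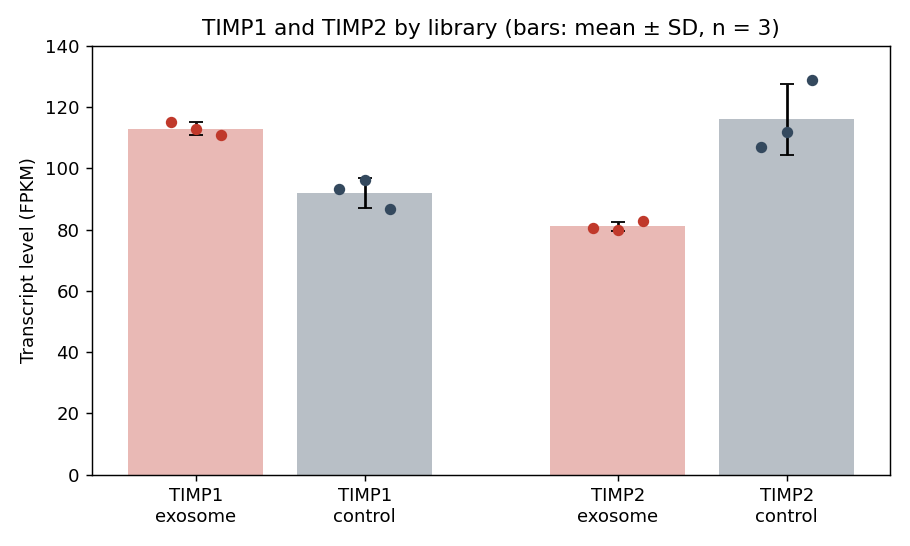
FPKM of TIMP1 and TIMP2 in 3 exosome and 3 control libraries; bars are means with SD and points are libraries. TIMP1 averaged 113 FPKM with exosomes and 92.1 FPKM in control, while TIMP2 averaged 81.1 FPKM with exosomes and 116 FPKM in control.

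Within a library, where the scaling to depth drops out, the ratio of TIMP1 to TIMP2 was 1.43, 1.42 and 1.34 with exosomes, against 0.874, 0.859 and 0.672 in control. No exosome library approached a control library. The log2 fold changes of TIMP1 and TIMP2 differed by 0.81, or by 0.51 when both were corrected. TIMP1 made up 58.3 ± 0.806% of the summed FPKM of the TIMP members with exosomes and 44.3 ± 3.60% in control (SD, n = 3). The sum of the TIMP members itself was 195, 193 and 194 FPKM with exosomes, against 200, 209 and 216 FPKM in control.

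The summed FPKM of the 6 MMP members was 56.3, 52.8 and 50.3 with exosomes, against 50.3, 50.5 and 46.9 in control. Of that sum, MMP1, MMP14 and MMP15 gave 31.1%, 31.8% and 33.1% with exosomes, and 29.1%, 29.4% and 38.4% in control. Divided by the summed TIMP members, the MMP sum was 0.273 ± 0.0146 with exosomes and 0.237 ± 0.0178 in control (SD, n = 3). This ratio of transcripts is a description without a test and does not measure enzyme activity. Over all 18 MMP and 4 TIMP genes with a row it was 0.526 ± 0.0132 with exosomes and 0.492 ± 0.0264 in control. Exosome libraries lay at 0.517 to 0.541 and control libraries at 0.462 to 0.512. The sum of all MMPs was 105 to 110 FPKM with exosomes and 107 to 113 FPKM in control. The sum of all TIMPs was 202 to 204 FPKM with exosomes and 213 to 232 FPKM in control. These sums and ratios were not corrected for GC and length.

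BSG, on chromosome 19 from 571277 to 583493, had 442, 420 and 362 FPKM with exosomes, against 293, 302 and 290 FPKM in control. All exosome libraries were higher than all control libraries, with exosome library 3 the nearest to them. BSG rose by 0.39 on the log2 scale (SE 0.078, edgeR adjusted p = 0.000331; 95% confidence interval 0.22 to 0.55), or 1.31-fold. Its GC content is 61.6%, and the 1569 tested genes within 2.5 percentage points of that had a median log2 fold change of 0.39 as well. Corrected, BSG was at -0.09 ± 0.059 and did not pass (SE; edgeR adjusted p = 0.261).

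Of 18 partners of basigin, 17 had a row and 15 were tested, of which 2 were higher and 8 lower (median log2 fold change -0.28), beside 25.6% and 26.1% of all tested genes. SLC16A3 encodes MCT4, a lactate exporter that needs basigin to reach the membrane. It had 32.9, 26.9 and 24.0 FPKM with exosomes, against 15.4, 13.8 and 13.4 FPKM in control. SLC16A3 rose by 0.89 ± 0.099 on the log2 scale (SE; edgeR adjusted p = 7.69e-07), and the corrected value was 0.56 (adjusted p = 2.40e-06). CSNK1D overlaps SLC16A3 on the other strand. PPIA, cyclophilin A and a ligand of basigin, rose by 0.30 (corrected 0.30; edgeR adjusted p = 0.00478), a call that ended without exosome library 2 (adjusted p = 0.0654). Processed copies of PPIA elsewhere in the genome leave its read count uncertain. EMB, embigin and a relative of basigin that also escorts lactate transporters, fell by 0.73 (corrected -0.38; edgeR adjusted p = 1.13e-06). SLC7A5, the amino acid transporter LAT1, fell by 0.55 (corrected -0.84; edgeR adjusted p = 3.71e-06), and CAV1, caveolin-1, which binds basigin, fell by 0.73 (corrected -0.68; edgeR adjusted p = 1.62e-07). Corrected, 2 partners were higher and 9 lower, beside 18.0% and 17.2% of all tested genes.

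Among the remaining MMP and TIMP genes, MMP24, MMP25 and TIMP4 had log2 fold changes larger in size than that of any member. MMP3 did as well, at 0.61, but did not pass (edgeR adjusted p = 0.215). Of 18 listed, 13 had a row and 7 were tested, of which 2 were higher and 2 lower, with 51.7% of all tested genes called in either direction. MMP24, the membrane enzyme MT5-MMP, had 11.5, 10.9 and 10.1 FPKM with exosomes, against 22.9, 25.6 and 29.4 FPKM in control, and fell by 1.34 ± 0.093 on the log2 scale (SE; edgeR adjusted p = 3.66e-10; corrected -1.63). MMP24OS and other genes overlap MMP24 on the other strand. TIMP4, which overlaps SYN2 on the other strand, had 8.05, 8.79 and 9.50 FPKM with exosomes, against 13.4, 16.3 and 16.6 FPKM in control. It fell by 0.89 ± 0.12 (SE; edgeR adjusted p = 6.67e-06; corrected -1.20). For both genes the groups were well apart, and the low group was the exosome group.

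MMP25 and MMP17 encode enzymes held at the membrane by a lipid anchor (MT6-MMP and MT4-MMP). MMP25 had 2.94, 2.23 and 1.55 FPKM with exosomes, against 0.856, 0.960 and 0.737 FPKM in control, and rose by 1.31 ± 0.23 (SE; edgeR adjusted p = 7.64e-05; corrected 0.83). MMP17 had 13.1, 12.4 and 11.7 FPKM with exosomes, against 9.60, 8.35 and 7.54 FPKM in control. Its rise of 0.46 (edgeR adjusted p = 0.00175) was not seen after correction, at -0.18 (adjusted p = 0.160).

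MMP1 belongs to a cluster of MMP genes on chromosome 11, in which 6 listed genes with a row span 435 kb. MMP13 (collagenase 3), named here after its values were seen, was the most abundant, with 23.8, 25.0 and 30.0 FPKM with exosomes and 24.6, 26.2 and 20.9 FPKM in control. Its log2 fold change of 0.06 did not pass (edgeR adjusted p = 0.676), and the corrected value of 0.26 did (adjusted p = 0.0245). MMP3 was read 26, 27 and 11 times with exosomes and 9, 14 and 14 times in control. MMP7, MMP10 and MMP12 had 0 to 4 reads in any library. Reads in this cluster thus came mainly from the collagenases MMP1 and MMP13 in both groups.

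Among genes of MMP activation and surface control, 19 of 24 were tested, with 3 higher and 8 lower (median log2 fold change -0.16). Of all tested genes, 25.6% were higher and 26.1% lower (51.7% in either direction). Corrected, 1 gene of the list was higher and 10 were lower, beside 18.0% and 17.2% of all tested genes (35.3% in either direction). CLDN1, a claudin that can recruit MMP14 and proMMP2, fell by 1.78 (edgeR adjusted p = 6.53e-06; corrected -1.58) at levels of 0.397 to 1.05 FPKM with exosomes and 2.10 to 2.45 FPKM in control. CAV1 is in this list as well. TFPI2, an inhibitor of plasmin that overlaps GNGT1 on the other strand, rose by 0.57 (edgeR adjusted p = 0.00369; corrected 0.74). CD63, a tetraspanin that binds TIMP1, rose by 0.45 (edgeR adjusted p = 0.00112), against 0.06 after correction, where it was not called (adjusted p = 0.656).

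Of 25 MMP substrates, 20 were tested, with 3 higher and 12 lower (median log2 fold change -0.37; corrected 2 and 15), beside 25.6% and 26.1% of all tested genes and 18.0% and 17.2% corrected. COL1A2, a chain of type I collagen, which MMP1 and MMP14 cleave, had 2.86, 2.18 and 2.49 FPKM with exosomes, against 8.01, 6.77 and 7.84 FPKM in control. E-cadherin (CDH1), whose ectodomain MMPs can shed, had 4.01, 4.10 and 4.37 FPKM with exosomes, against 9.95, 10.9 and 10.1 FPKM in control. In both genes every exosome library was below every control library. CDH1 fell by 1.39 ± 0.10 on the log2 scale (SE; edgeR adjusted p = 7.89e-10; corrected -1.34). IGFBP5, which binds insulin-like growth factors, and THBS1, thrombospondin-1, fell by 2.05 and by 1.06 (corrected -2.04 and -0.83; edgeR adjusted p = 2.70e-09 and 2.86e-09). LAMA3, a chain of laminin-332 (0.45, corrected 0.66; edgeR adjusted p = 3.15e-05), and IGFBP3 (0.60, corrected 0.48; edgeR adjusted p = 9.05e-06) were among the 3 higher genes. The other higher gene, AGRN, is named here after its values were seen. Its call at 0.23 (edgeR adjusted p = 0.0235) turned to lower after correction (-0.17, adjusted p = 0.0277). F2R, the receptor PAR1 that MMP1 can cleave, had 74.2, 76.4 and 79.5 FPKM with exosomes and 78.0, 84.7 and 92.5 FPKM in control. Its groups overlapped, and its call at -0.23 (edgeR adjusted p = 0.0171) was lost after correction (-0.11, adjusted p = 0.189), with library totals (-0.15, adjusted p = 0.114) and when any of control libraries 2 and 3 and exosome libraries 1 and 2 was left out, with adjusted p of 0.0656 to 0.0767 in those edgeR fits.

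**Figure D4:**
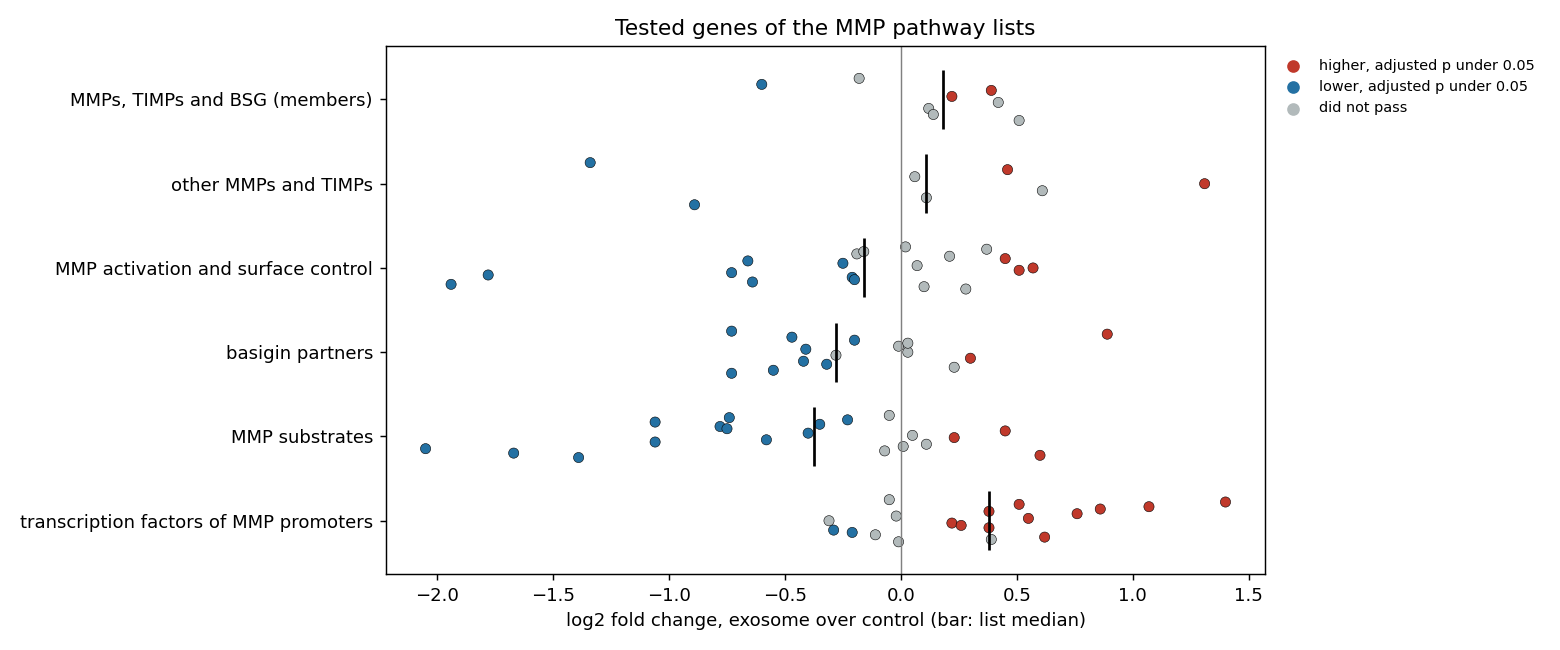
log2 fold change, exosome over control, of the tested members and of the tested genes of 5 related lists; points are genes, coloured by the edgeR call at an adjusted p under 0.05, and vertical bars are list medians. Of 20 tested substrates 12 were lower and 3 higher, and of 19 tested transcription factors 11 were higher and 2 lower. Over all tested genes 25.6% were higher and 26.1% lower. Corrected, 7 transcription factors were higher and 2 lower, and 2 substrates higher and 15 lower.

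Of 20 transcription factors that bind MMP promoters, 19 were tested, with 11 higher, 2 lower and 6 not passing (median log2 fold change 0.38), beside 25.6% higher and 26.1% lower of all tested genes. Corrected, 7 were higher and 2 lower (median 0.20), beside 18.0% and 17.2% of all genes. JUNB, a subunit of AP-1, had 154, 139 and 112 FPKM with exosomes, against 47.5, 48.4 and 48.8 FPKM in control. It rose 2.63-fold (log2 fold change 1.40 ± 0.092, SE; edgeR adjusted p = 1.93e-10; corrected 0.80). HOOK2 overlaps JUNB on the other strand. CEBPB rose by 1.07 (edgeR adjusted p = 0.000311; corrected 0.47), the epithelial ETS factor ELF3 by 0.76 (edgeR adjusted p = 3.70e-05; corrected 0.61), and JUN, the AP-1 subunit, by 0.55 (edgeR adjusted p = 5.69e-05; corrected 0.29). ETV5 and ETS1, of the ETS family, were the lower members at -0.29 and -0.21 (edgeR adjusted p = 0.027 and 0.0377). The ETV5 call ended without control library 3 (log2 fold change -0.17, adjusted p = 0.208) or exosome library 1 or 2, with library totals (edgeR adjusted p = 0.114) and in DESeq2 (adjusted p = 0.052), and the ETS1 call ended with the correction (0.03) and when control library 1 or 3, or exosome library 1 or 2, was left out. The ETS1 call was also lost with library totals (edgeR adjusted p = 0.195), with no filter on low counts (0.0526) and in DESeq2 (0.0595). These lists share members and were chosen with results of these data known, so their counts are a description.

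The 5 of 12129 genes whose log2 CPM followed that of MMP1 most closely over the 6 libraries were INPP5B, TBCD, STOX1, SHOX2 and SP140, with Pearson's r of 0.982 to 0.996. None of these passed the test between the groups (log2 fold changes of 0.08 to 0.70, edgeR adjusted p = 0.110 to 0.448). The points share their libraries and depth, and so high an r is to be read against the number of genes searched over few libraries.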

How the data were processed

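Trizol RNA of 3 exosome and 3 control samples went into NEBNext Ultra libraries, per the labels' protocols. The submitters' processing notes list STAR and the build GRCh38 (hg38). Counting program, annotation release and strand setting were not given in the sources used here. Deposited were, in a single table, the authors' read counts per gene, a signal (counts over 1 size factor per library, not used here), FPKM, log2 fold changes and p-values of exosome over control. The deposited FPKM values equal counts per kilobase scaled to the library's summed counts. Positions count from 0 in the table and are given from 1.

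Differences in counts were tested by edgeR 4.0.16 (R 4.3.3; filterByExpr, TMM, robust quasi-likelihood fit, group as the only term; Benjamini-Hochberg over 12449 genes). The correction smoothed log2 CPM minus the gene mean on GC content and log2 length of the longest GENCODE 29 transcript (loess, span 0.3) as an offset. RLE, library totals, other filters, DESeq2 1.42.0, limma-voom (limma 3.58.1), a stricter threshold (0.01), omission of each library in turn, and a replicate block were alternatives. The edgeR, limma-voom, DESeq2 and corrected fits were tested on simulated data. No pair of libraries agreed within sampling noise (chi-square per gene at least 2.29). The members, gene lists and alternatives were chosen with earlier results of these data known. Named beside the members were up to 4 genes per list with the smallest adjusted p, up to 2 called against their list, F2R, and the 5 genes most correlated with MMP1. Some genes of the rule and the lists are not reported here. Intervals cover these libraries only.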

Additional observations from a re-analysis of the deposited data

How the results depend on the processing

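TIMP2 stayed lower and past the threshold in all alternatives run, with log2 fold changes of -0.77 to -0.51. MMP1 passed in none of them (0.06 to 0.20, adjusted p = 0.106 to 0.645). Of 128 member values under the alternatives, 115 kept direction and side of the threshold, and of 496 values of the other named genes 467 did. Removing the GC and length trend moved most: 0 members were higher and 3 lower, also with the replicate block, and 2144 genes were lower (3244 without it). TIMP1 turned to -0.26, MMP14 to -0.15 (-0.14 with the block), BSG to -0.09 and MMP17 to -0.18, ETS1 turned to 0.03, and MMP15 passed at -0.63, each also with the block. At a threshold of 0.01, TIMP1 (0.22) no longer passed and 1 member was higher. Leaving out each library in turn gave 1 to 3 higher members, with TIMP1 at 0.18 to 0.26 and MMP2 at 0.05 to 1.42. The replicate numbers were not shown to pair the libraries: deviations of same-numbered libraries correlated at 0.058, 0.097 and 0.199, and 4 of 6 libraries correlated best with their own number. With the replicate block, 3444 genes were higher and 3525 lower, and 2 members were lower, MMP15 passing at -0.18 (adjusted p = 0.0419). With CPM per kilobase of the longest transcript in place of FPKM, the MMP to TIMP ratio was 0.218 with exosomes and 0.194 in control. The causes were not tested. Depth limits MMP2, MMP28 and TIMP3, which had at most 26 reads in a library.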
